A study of Mus musculus with 39 samples.

Results

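Mouse brain at day 14 after soman was compared with mouse brain at day 7, over the 1/5 and 1/2 LD50 doses, each dose being set against itself. The 12 of 39 libraries that the labels place at these days and doses were used. They are 3 libraries of day 14 at 1/5 LD50, 3 of day 14 at 1/2 LD50, 3 of day 7 at 1/5 LD50 and 3 of day 7 at 1/2 LD50. Soman, a nerve agent of the organophosphate class, inhibits the enzyme that clears acetylcholine at synapses, and the LD50 is the median lethal dose. All of these mice received soman under the skin, and the series' design text gives 3 biological replicates for a group. For orientation, values are also given for the 3 saline libraries and for 1/10 LD50 at day 14 and day 7 (6 libraries). The labels used here name the tissue as brain with no region, and give no strain, age or sex. Neither the number of animals behind a library nor the number of soman injections is stated in them. The saline libraries carry no collection day, so the passage of time and any batch of collection or processing shared by a day cannot be told apart. P-values measure the spread between libraries only, estimated in 1 model of all 39 libraries in 13 groups, other days included.

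When acetylcholinesterase is blocked, acetylcholine builds up and drives muscarinic and nicotinic receptors, which can start seizures. Neurons under strong drive switch on immediate early genes within minutes to hours and stress chaperones over hours. Glia, vessels and the coverings of the brain can change over the days that follow. RNA of whole brain mixes all of these cells, and from bulk tissue fewer cells of a type and less RNA per cell cannot be told apart.

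Values were deposited as FPKM, fragment counts scaled to transcript length and to the size of the library, and sequencing depth is unknown. Differences are given as log2(FPKM + 1) of day 14 minus day 7 with their standard error (SE), over 6 libraries a day unless a dose is named, and "rose" or "fell" marks a limma adjusted p under 0.05. The FPKM of a library summed to 300252 to 313178 at day 14, 318364 to 337606 at day 7 and 296322 to 316802 in saline. Genes above 0 numbered 24837 to 25481 at day 14, against 26442 to 29662 at day 7 and 25731 to 26001 in saline. The mitochondrial genome took 8.09 to 9.30% of the FPKM at day 14, against 10.4 to 13.2% at day 7 and 7.17 to 11.9% in saline. Replicates of the 4 groups correlated across genes with r of 0.983 to 0.994. Snap25, a neuronal marker, had 706 to 771 FPKM (median 751) at day 14. At day 7 it had 619 to 765 FPKM (median 693). Alb, Ckm and Krt5, markers of liver, muscle and skin, were at most 0.180 FPKM. Acta1, another muscle marker, was present at 1.66 to 2.74 FPKM at day 14 and 2.33 to 3.50 FPKM at day 7.

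In the whole series 8 of 39 libraries stood apart, 7 because more of their genes than in any other group lay midway between the other 2 libraries of their group and 2 for a high mitochondrial share, 1 library showing both. Among the 12 libraries compared this was replicate 3 of 1/5 LD50 at day 14. Replicate 1 of 1/2 LD50 at day 7 was almost without the transcripts of cerebellar granule and Purkinje cells. Gabra6, a GABA-A receptor subunit of granule cells, was at 0.0247, 26.8 and 25.99 FPKM in the 3 libraries of day 7 at 1/2 LD50, the lowest being replicate 1. Counts without these libraries are given beside results they move, or at the end for groups of genes.

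Of 14701 genes tested, 3508 (23.9%) differed between day 14 and day 7, with 2001 higher at day 14 (13.6%) and 1507 lower (10.3%). The 57.0% of calls that were higher became 68.2% with mitochondrial genes removed before scaling. The differences were small, with a median size of 0.26 (1.19-fold) among called genes. Only 23 called genes differed more than 2-fold and 125 more than 1.5-fold. The 6 libraries of day 14 lay wholly above those of day 7 for 1102 genes (7.5%) and wholly below for 531 (3.61%). Leaving out 1 library at a time gave 2450 to 3333 called genes. With both of these libraries left out (day 14, 1/5 LD50 replicate 3, and day 7, 1/2 LD50 replicate 1), a setting chosen after seeing the data, 1926 genes were called, 1259 higher and 667 lower.

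Each dose on its own gave 1840 called genes at 1/5 LD50 (12.5%) and 1216 at 1/2 LD50 (8.27%). Of the genes called at 1/5 LD50, 93.1% had the same direction at 1/2 LD50 and 29.6% were also called there. Of those called at 1/2 LD50, 93.4% had the same direction at 1/5 LD50 and 44.7% were called there. Over all tested genes 70.4% shared their direction. No gene passed the limma test of a difference between the doses (0%), with 1242 genes at an unadjusted p under 0.05 and 0 to 4 calls under the alternatives tried. The count at 1/2 LD50 rested on single libraries, and it was 211 without replicate 1 of day 7, 728 without replicate 1 of day 14 and 333 without replicate 2 of day 14. At 1/5 LD50 the count was 1012 without replicate 3 of day 7, 1157 without replicate 1 of day 14 and 1087 without replicate 3 of day 14.

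**Figure D1:**
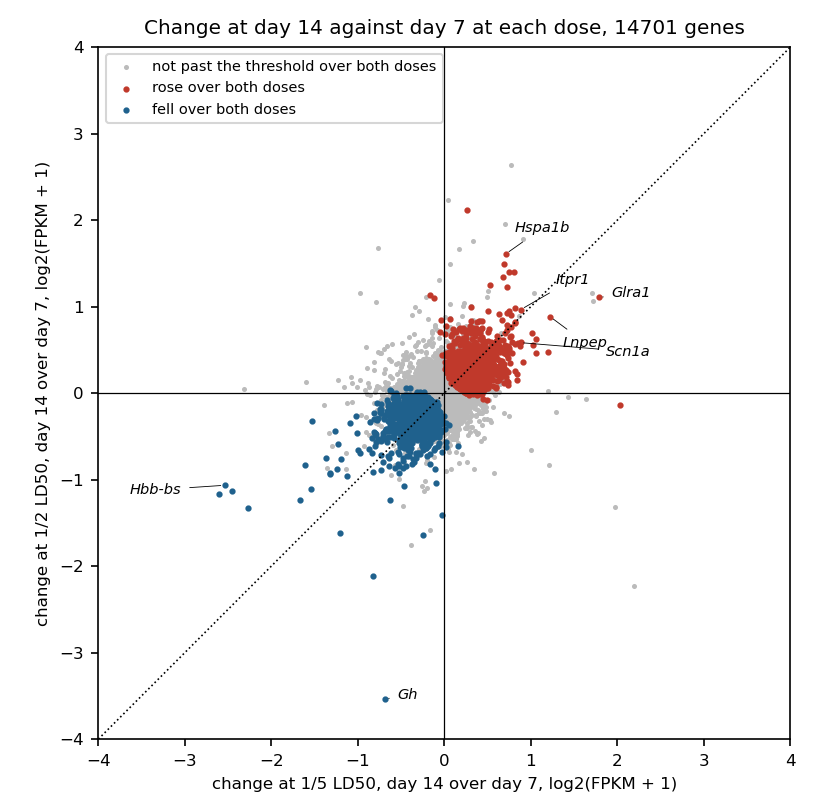
Change at day 14 against day 7 at 1/5 LD50 (horizontal) and at 1/2 LD50 (vertical), both as log2(FPKM + 1) differences, for each of 14701 tested genes. Red points are the 2001 genes that rose and blue points the 1507 that fell over both doses, grey points did not pass the threshold, and the dotted line marks equal change. Most coloured points lie where both changes have the same sign, which a call on their mean favours. Gh lies far below the others at 1/2 LD50 (-3.54).

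In the plot of change by dose the called genes spread along the line of equal change, with few where the doses differ in sign. They were called on the mean of the 2 changes, which favours a shared sign. Over all tested genes 70.4% shared their direction, with r = 0.51 between the changes at each dose. Over both doses together only 84 genes (0.571%) differed between day 14 and saline, while 2491 (16.9%) differed between day 7 and saline. These comparisons share the day 14 or day 7 libraries with the one described here, and so they are given for the levels only. They also rest on single saline libraries. For day 14 the count was 20, 21 and 15 when saline replicate 1, 2 or 3 was left out, and 50 and 55 without replicate 3 of 1/5 LD50 and replicate 1 of 1/2 LD50 at day 14. For day 7 it was 1618 and 1225 when saline replicate 1 or 3 was left out, and 1645 without replicate 1 of its 1/2 LD50 group. At 1/10 LD50, day 14 against day 7 gave 2405 called genes (16.4%), 11.2% of genes being higher at day 14 and 5.2% lower, and 74.8% of the 3508 genes had the same direction there, against 59.6% of all genes. The change differed from that at 1/10 LD50 for 982 genes (6.68%), being more positive at the higher doses for 2.24% of genes and more negative for 4.44%. That balance turned with the scaling. The more positive changes made up 33.5% of these calls as deposited, 47.8% with median-ratio scaling, 49.7% with quantile normalization and 57.5% with mitochondrial genes removed. Of the calls at 1/10 LD50 itself 68.2% were higher at day 14, against 49.9%, 51.2% and 51.7% in the same settings. The count at 1/10 LD50 was 10 without the 8 libraries standing apart, 2 of which were the day 7 libraries of high mitochondrial share at that dose. That setting leaves 1 library of day 7 at 1/10 LD50, which is assumed to vary like the other groups.

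Transcript length moved with the direction of change. Median transcript length was 5786 bases among risen genes, 2277 bases among fallen genes and 3277 bases among all tested genes. Of the genes with transcripts over 8000 bases 55.7% rose and 2.19% fell. Of those under 1000 bases 1.22% rose and 16.1% fell. The median deviation of long genes (6000 bases or more) minus that of short genes (under 2000 bases) was 0.043 to 0.12 on the log2 scale in the 6 libraries of day 14, -0.30 to -0.060 in those of day 7 and 0.12 to 0.17 in saline. The groups of day 14 and day 7 did not overlap in this measure. With each library's trend on length removed, 2415 genes were called, 1257 higher and 1158 lower. The part of length in any single gene's change was not tested.

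**Figure D2:**
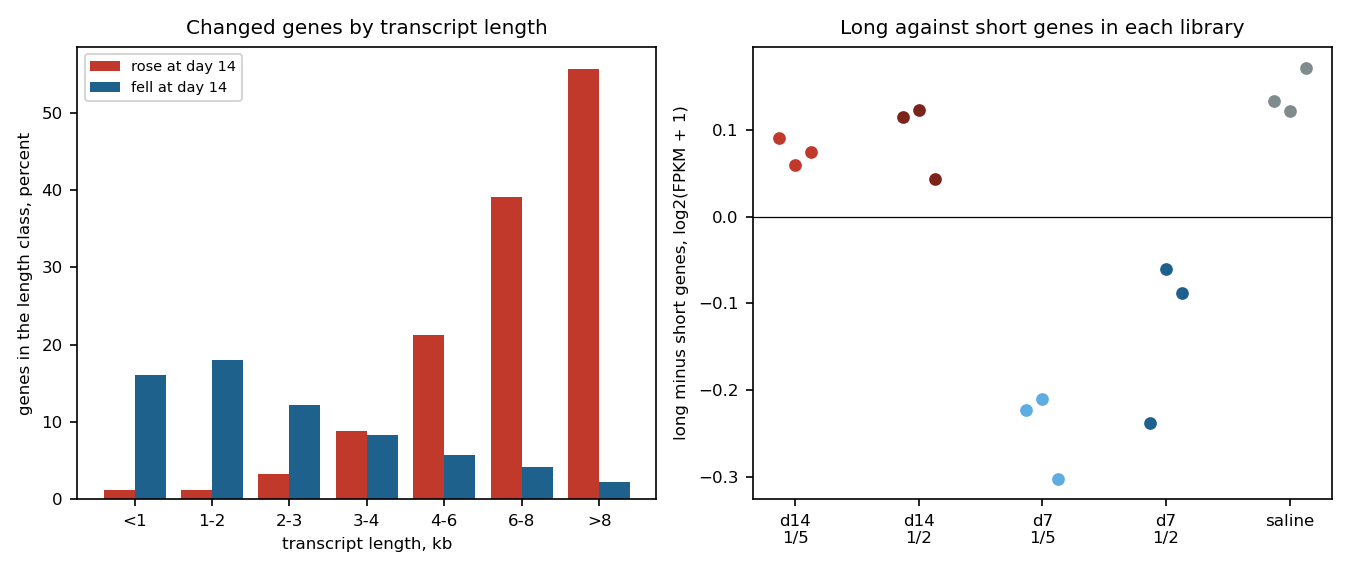
Left, percent of the genes in each class of transcript length (kilobases) that rose (red) or fell (blue) at day 14 against day 7. Right, each library's median deviation of genes of 6000 bases or more minus that of genes under 2000 bases, on the log2(FPKM + 1) scale, for day 14 (d14) and day 7 (d7) at 1/5 and 1/2 LD50 and for saline. The share of risen genes is 1.22% and 1.15% in the 2 shortest classes and climbs from there to 55.7%, and the day 7 libraries lie below 0, the others above.

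The plot of changed genes by length shows both parts of this, a climb in risen genes across the length classes above 2000 bases and day 7 libraries that lie below both day 14 and saline.

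Genes of neuronal excitability were among the risen ones. Of 23 voltage-gated sodium and calcium channel genes tested, 10 rose and none fell (median 0.14, against -0.015 for all genes). Scn1a, the main sodium channel subunit of fast inhibitory neurons, had 24.6 to 28.7 FPKM (median 25.8) at day 14 and 13.8 to 20.3 FPKM (median 14.3) at day 7, with 25.2 to 27.4 FPKM in saline. All 6 libraries of day 14 lay above all 6 of day 7, and at day 7 the 1/2 LD50 libraries reached higher than those of 1/5 LD50 (log2 difference 0.73 ± 0.072, limma adjusted p = 1.03e-07). Scn2a, the sodium channel subunit of excitatory axons, had 37.3 to 41.3 FPKM (median 40.4) at day 14 and 22.2 to 31.1 FPKM (median 25.6) at day 7 (0.62 ± 0.064, limma adjusted p = 1.77e-07), also without overlap. Scn8a, the subunit that sets firing at the axon initial segment, had 25.5 to 29.4 FPKM (median 28.7) at day 14, against 17.02 to 22.8 FPKM (median 19.3) at day 7 (0.49 ± 0.079, limma adjusted p = 5.01e-05). Of the calcium channel genes, Cacnb4, an auxiliary beta subunit, rose by 0.33 (limma adjusted p = 0.000363) and Cacna1c, the L-type pore subunit, by 0.24 (limma adjusted p = 0.000668). The list's transcripts have a median of 8225 bases, and 55.7% of all genes over 8000 bases rose. With the length trend removed 6 of the list rose, 1 fell and the list's median was -0.00057. That was also the value of Cacna1c (limma adjusted p = 0.994). The 3 sodium channel genes kept their calls under every alternative run.

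Potassium channel genes rose in 12 of 30 cases and fell in none (median 0.17). Kcna2, a delayed rectifier of axons, had 21.5 to 23.4 FPKM (median 22.2) at day 14 and 13.97 to 19.7 FPKM (median 15.4) at day 7, with 21.9 to 24.6 FPKM in saline (0.45 ± 0.068, limma adjusted p = 2.14e-05). Kcnma1, the BK channel that responds to calcium and voltage, rose by 0.35 (limma adjusted p = 0.000198), and its groups did not overlap. With the length trend removed 5 potassium channel genes rose and 1 fell (median 0.022). In that setting Kcnma1 (limma adjusted p = 0.157), Kcnc2 (0.0613) and Kcnd3 (0.0509) lost their calls.

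Receptors followed the same direction. Of 14 AMPA and NMDA glutamate receptor genes 5 rose and none fell (median 0.15), and of 18 GABA-A receptor and GABA synthesis genes 4 rose and none fell (median 0.15). Gabrb2, a beta subunit of the commonest GABA-A receptor, had 34.5 to 38.5 FPKM (median 37.2) at day 14 and 22.6 to 33.3 FPKM (median 25.2) at day 7, with 35.7 to 40.2 FPKM in saline (0.51 ± 0.069, limma adjusted p = 5.3e-06). Its days did not overlap. Among glutamate receptors, Cacng2, the auxiliary subunit stargazin, had 13.6 to 16.5 FPKM (median 14.2) at day 14 and 10.9 to 13.4 FPKM (median 11.4) at day 7 (0.30 ± 0.064, limma adjusted p = 0.00111). Gria4, an AMPA receptor subunit, rose by 0.42 (limma adjusted p = 0.00841). Gria1 rose by 0.20 (limma adjusted p = 0.0144), and it lost its call without the 8 libraries standing apart (0.0579) and with the length trend removed (0.143). With that trend removed 2 glutamate receptor genes rose and 1 fell (median 0.0076), and 4 GABA genes rose (median 0.12).

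Release machinery showed 8 rises and no fall among 21 synaptic vesicle genes (median 0.10). The scaffold genes Bsn and Pclo, which organise the active zone, rose by 0.42 (limma adjusted p = 0.000113) and 0.36 (0.000115). Their transcripts are 15938 and 20084 bases long, and with the length trend removed neither was called (limma adjusted p = 0.096 for Bsn and 0.552 for Pclo). In that setting 2 vesicle genes rose (median 0.045), and 5 did without replicate 1 of 1/2 LD50 or replicate 3 of 1/5 LD50 at day 7. Of 10 general neuronal markers none rose or fell by limma (median 0.10), with 3 at an unadjusted p under 0.05.

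Lnpep, a membrane aminopeptidase of vesicles that carry the insulin-sensitive glucose transporter, had the smallest p-value of the 14 named largest rises. It had 13.5, 12.3 and 13.3 FPKM at day 14 after 1/5 LD50 and 12.4, 15.5 and 12.2 after 1/2 LD50, against 5.06, 5.70 and 4.38 FPKM after 1/5 LD50 and 5.17, 8.30 and 7.14 FPKM after 1/2 LD50 at day 7. Every day 14 library exceeded every day 7 library and lay near saline at 13.3 to 15.7 FPKM (1.05 ± 0.10, limma adjusted p = 1.03e-07). Clock, the transcription factor of the circadian oscillator, showed the same layout at 10.3 to 12.6 FPKM (median 11.8) at day 14 and 7.92 to 9.78 FPKM (median 8.73) at day 7 (0.36 ± 0.052, limma adjusted p = 9.88e-06). Rora, an orphan nuclear receptor on the thalamic list that is also strong in Purkinje cells, had 9.13 to 11.8 FPKM (median 10.3) at day 14 and 5.30 to 7.86 FPKM (median 6.43) at day 7 (0.60 ± 0.091, limma adjusted p = 2.31e-05). All of these kept their calls under every alternative run.

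**Figure D3:**
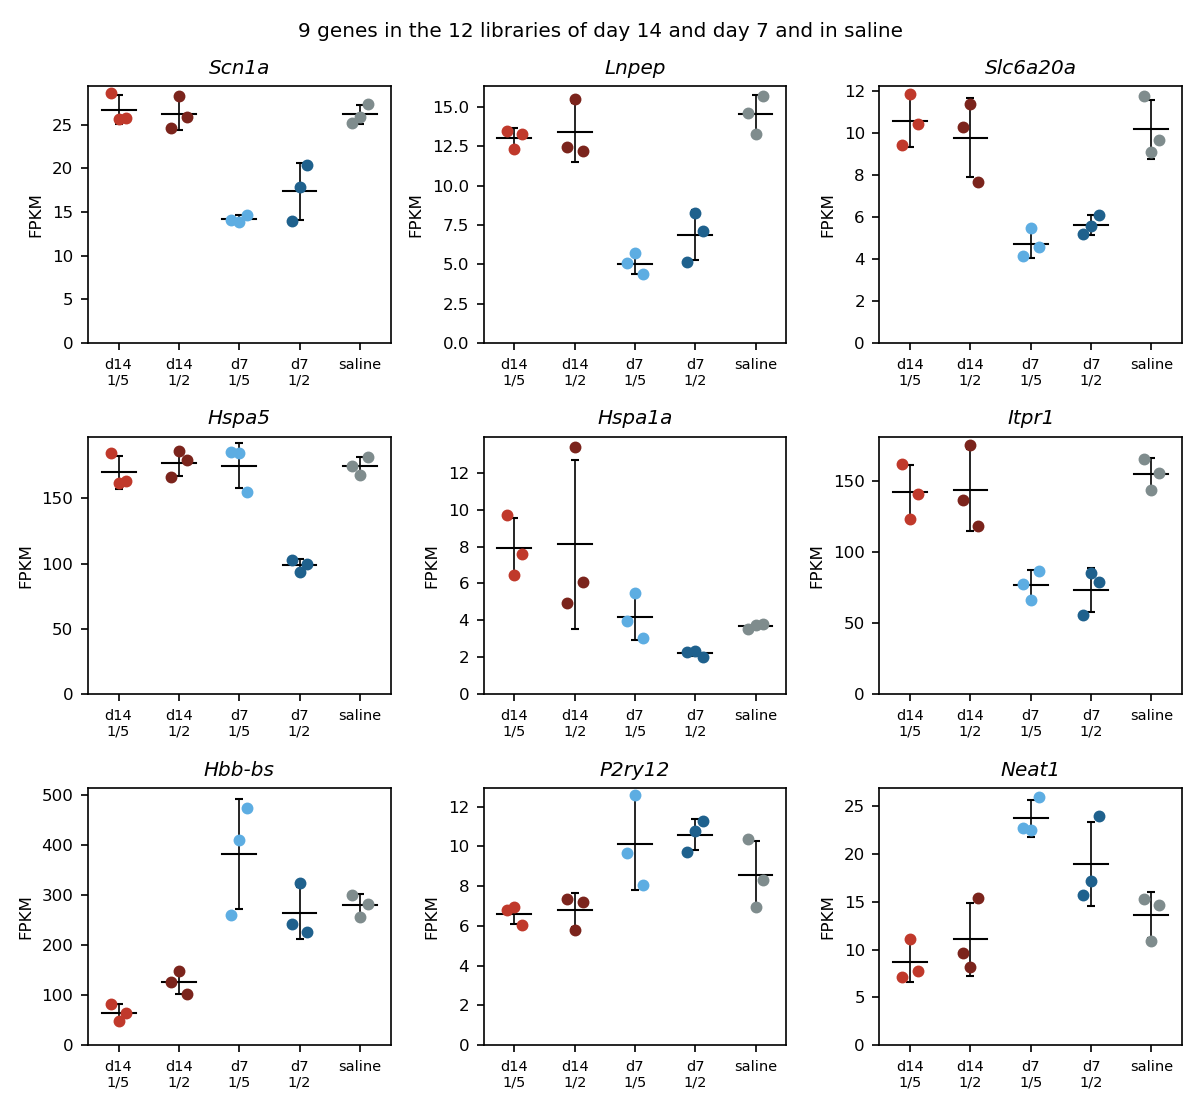
FPKM of 9 genes in each library of day 14 (d14, red), day 7 (d7, blue) and saline (grey), with points for the 3 libraries of a group, a bar for their mean and whiskers for 1 SD. Scn1a, Lnpep, Slc6a20a and Itpr1 are higher in all day 14 libraries than in all day 7 libraries and near saline. Hbb-bs, P2ry12 and Neat1 are lower in all day 14 libraries, and Hspa5 is low only at day 7 after 1/2 LD50.

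The plot of 9 genes by library shows 4 layouts, a low day 7 beside a day 14 near saline (Scn1a, Lnpep), a high day 7 beside a day 14 near saline (Neat1), a low day 14 beside a day 7 near saline (Hbb-bs) and a high day 14 (Hspa1a).

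Cerebellar transcripts were higher at day 14, with 4 of 18 genes rising and none falling (median 0.82). Itpr1, the IP3 receptor that releases calcium in Purkinje cells, had 118 to 175 FPKM (median 139) at day 14 and 55.7 to 86.7 FPKM (median 77.8) at day 7, with 144 to 166 FPKM in saline (0.92 ± 0.15, limma adjusted p = 4.41e-05). Its days did not overlap, and its lowest value was in replicate 1 of 1/2 LD50 at day 7. Etv1, a transcription factor of granule cells, rose by 0.62 (limma adjusted p = 0.00318). En2, a homeobox gene of the cerebellum, rose by 0.89 (limma adjusted p = 0.0403), with a p of 0.153 without that library. It also lost its call without replicate 1 or 2 of 1/5 LD50 at day 7, without any 1 of the 3 libraries of 1/5 LD50 at day 14 and without replicate 2 or 3 of 1/2 LD50 at day 14.

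The summed FPKM of the cerebellar list was 597 to 887 at day 14, 186 to 696 at day 7 and 725 to 851 in saline, the lowest being replicate 1 of 1/2 LD50 at day 7. Gabra6 had 40.8 to 79.3 FPKM (median 51.4) at day 14 and 0.0247 to 39.7 FPKM (median 26.4) at day 7 without overlap, yet it did not pass the test (1.70 ± 0.77, limma adjusted p = 0.109). Pcp2, a Purkinje cell gene, was at 0.261, 52.2 and 46.1 FPKM in the 3 libraries of day 7 at 1/2 LD50 (1.13 ± 0.83, limma adjusted p = 0.333 over both doses). Without replicate 1 of 1/2 LD50 at day 7 the list's median was 0.51 and 3 genes rose, while 7 did without replicate 2 of that group and 10 in a model of only the 4 groups. How much cerebellum each library held was not tested.

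Several of the largest rises were lowest in that same library. Il16, a cytokine precursor whose neuronal form is made in the cerebellum and hippocampus, had 7.22 to 9.71 FPKM (median 7.70) at day 14 and 0.853 to 6.14 FPKM (median 4.21) at day 7 (1.01 ± 0.32, limma adjusted p = 0.0201). Atp2a3, a calcium pump of the endoplasmic reticulum that Purkinje cells use, had 9.62 to 14.9 FPKM (median 11.5) at day 14 and 1.74 to 9.40 FPKM (median 6.33) at day 7 (0.98 ± 0.31, limma adjusted p = 0.0214). The lowest value of both was in replicate 1 of 1/2 LD50 at day 7, and without it the limma adjusted p was 0.0921 for Il16 and 0.0951 for Atp2a3. Without replicate 2 of 1/5 LD50 at day 7 it was 0.06 and 0.0678, and Atp2a3 was also lost without replicate 2 of 1/2 LD50 at day 14 (0.0591). Crtam, an adhesion molecule first known from T cells (1.07 ± 0.35, limma adjusted p = 0.0271), and Arhgef33, a predicted exchange factor (1.09 ± 0.37, limma adjusted p = 0.0328), behaved alike, with 0.122 and 0.144 without that library. Both were also lost without replicate 2 of 1/5 LD50 at day 7 and, at day 14, without replicates 1 and 3 of 1/5 LD50 and without replicate 2 of 1/2 LD50, each left out alone.

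Glra1, the alpha subunit of the glycine receptor of brainstem and spinal cord, had the largest rise of the named genes. It had 6.39, 4.35 and 5.68 FPKM at day 14 after 1/5 LD50 and 1.56, 7.99 and 5.92 after 1/2 LD50, against 0.683, 1.25 and 0.71 FPKM after 1/5 LD50 and 0.461, 0.668 and 5.57 FPKM after 1/2 LD50 at day 7 (1.44 ± 0.34, limma adjusted p = 0.00287). Replicate 3 of 1/2 LD50 at day 7 lay within the range of day 14, and replicate 1 of 1/2 LD50 at day 14 was the low one. Syt2, the calcium sensor of fast synapses in the hindbrain, had 18.7 to 31.5 FPKM (median 29.6) at day 14 and 6.77 to 24.3 FPKM (median 13.3) at day 7 (0.90 ± 0.22, limma adjusted p = 0.00383), with replicate 3 of 1/2 LD50 highest at day 7 again. Gdf1, a growth factor whose transcript is shared with Cers1, so that its reads may belong to either, had 2.45 to 11.5 FPKM (median 4.27) at day 14 and 0.899 to 11.2 FPKM (median 1.13) at day 7 (1.19 ± 0.41, limma adjusted p = 0.0331). Its highest value at day 7 stood in replicate 3 of 1/5 LD50. It lost its call without replicate 1 or 2 of either dose at day 7, without replicate 2 or 3 of 1/5 LD50 at day 14 and without replicate 2 or 3 of 1/2 LD50 at day 14.

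Cytosolic heat shock proteins rose in 7 of 18 cases and fell in none (median 0.13). These chaperones hold or refold damaged proteins. Hspa1a and Hspa1b, the inducible Hsp70 genes, are nearly identical, so reads may have been split between them. Hspa1a had 9.72, 6.48 and 7.61 FPKM at day 14 after 1/5 LD50 and 4.92, 13.4 and 6.08 after 1/2 LD50, against 3.98, 5.47 and 3.03 FPKM after 1/5 LD50 and 2.29, 2.33 and 2.01 FPKM after 1/2 LD50 at day 7. Saline held 3.50 to 3.802 FPKM, so that the day 14 values were the high ones here, and day 7 at 1/2 LD50 lay lowest (1.10 ± 0.18, limma adjusted p = 6.91e-05). Hspa1b had 4.51 to 12.04 FPKM (median 7.50) at day 14 and 1.68 to 5.92 FPKM (median 2.77) at day 7 (1.16 ± 0.20, limma adjusted p = 0.000137). Against saline, which shares the day 14 libraries, day 14 differed by 0.88 ± 0.22, limma adjusted p = 0.063 for Hspa1a and 1.00 ± 0.25, limma adjusted p = 0.0571 for Hspa1b, which is short of the threshold.

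Their helper genes moved less. Dnajb1, the Hsp40 partner of Hsp70, had 14.4 to 19.2 FPKM (median 16.9) at day 14 and 10.9 to 15.5 FPKM (median 12.4) at day 7 (0.38 ± 0.072, limma adjusted p = 0.000326). Hsph1, a nucleotide exchange factor for Hsp70, had 99.9 to 117 FPKM (median 113) at day 14 and 86.3 to 99.8 FPKM (median 95.1) at day 7 without overlap (0.23 ± 0.056, limma adjusted p = 0.00329). Dnajb4 rose by 0.20, Hspa4l by 0.53 and Chordc1 by 0.22 (limma adjusted p = 0.00148, 0.0142 and 0.0253). The abundant members Hspa8 (0.026 ± 0.071, limma adjusted p = 0.819) and Hsp90aa1 (0.12 ± 0.049, limma adjusted p = 0.0812) did not pass. Between 5 and 12 of the list rose under the alternatives run.

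Chaperones of the endoplasmic reticulum (ER) and genes of the unfolded protein response were called mostly at 1/2 LD50. At 1/2 LD50, 11 of 22 rose and none fell (median 0.33, 5.3% of all genes rising), while at 1/5 LD50 2 rose and 1 fell (median 0.0022, 8.08% of all genes rising). Over both doses 9 rose and 1 fell. Hspa5, the main ER chaperone BiP, had 166, 187 and 179 FPKM at day 14 and 103, 93.5 and 99.6 at day 7 after 1/2 LD50 (0.84 ± 0.13, limma adjusted p = 0.000241). After 1/5 LD50 it had 185, 162 and 163 FPKM at day 14 and 185, 184 and 155 at day 7 (-0.039 ± 0.13, limma adjusted p = 0.879). Day 7 at 1/2 LD50 was the low group, below all other libraries and below saline at 168 to 182 FPKM. The test of the difference between doses gave 0.88 ± 0.18, limma adjusted p = 0.0982, so that a difference between doses did not pass for this gene.

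Other genes of the response showed low day 7 values at 1/2 LD50. Pdia4, a disulphide isomerase, had 24.6, 28.4 and 27.04 FPKM at day 14 and 15.5, 14.1 and 16.04 at day 7 after 1/2 LD50 (0.77 ± 0.10, limma adjusted p = 0.0001), and at 1/5 LD50 it differed by 0.017 ± 0.10, limma adjusted p = 0.939. Manf, a secreted ER stress factor, had 64.5, 74.7 and 70.1 FPKM at day 14 and 45.8, 42.1 and 43.6 at day 7 after 1/2 LD50 (0.66 ± 0.10, limma adjusted p = 0.000338), and at 1/5 LD50 it differed by 0.073 ± 0.10, limma adjusted p = 0.698. Xbp1, the transcription factor of the response, rose by 0.34 over both doses (limma adjusted p = 0.00225) and Hyou1, an ER chaperone, by 0.26 (0.00342). Over both doses Dnajc3 and Sel1l had no overlap between days. Dnajc3, an inhibitor of the kinase arm of the response, had 14.2 to 17.3 FPKM (median 15.4) at day 14 and 8.47 to 12.7 FPKM (median 10.3) at day 7 (0.53 ± 0.065, limma adjusted p = 1.48e-06). Sel1l, an adaptor of ER-associated degradation, rose by 0.26 (limma adjusted p = 0.000392). Calr, calreticulin, was the only fall, with 175 to 198 FPKM (median 187) at day 14 and 176 to 235 FPKM (median 209) at day 7 (-0.14 ± 0.045, limma adjusted p = 0.0247). It was called at 1/5 LD50 (-0.28 ± 0.063, limma adjusted p = 0.00319) and not at 1/2 LD50 (0.0066 ± 0.063, limma adjusted p = 0.964), and over both doses no member of the list fell without replicate 1 or 3 of 1/5 LD50 at day 7, replicate 1 of 1/2 LD50 at day 7, replicate 2 of 1/5 LD50 at day 14 or replicate 3 of 1/2 LD50 at day 14, each left out alone. None fell either with the length trend removed, with quantile normalization, with mitochondrial genes removed or in the additive model of 12 libraries.

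Promoters of 3 of these genes are printed because all of them hold the same ER stress element while Hspa5 and Dnajc3 rose and Calr fell. They are from RefSeq on GRCm38.p6, 250 bases before to 50 bases after the annotated start, 5′ to 3′ on the gene's strand, at chr2:34771840-34772139 on the plus strand for Hspa5, chr14:118937682-118937981 on the plus strand for Dnajc3 and chr8:84846882-84847181 on the minus strand for Calr. Capitals mark the element, CCAAT and CCACG with 9 bases of any kind between them, searched on both strands. Its first base lies 65 bases before the start in Hspa5, 105 in Dnajc3 and 162 in Calr.
Hspa5: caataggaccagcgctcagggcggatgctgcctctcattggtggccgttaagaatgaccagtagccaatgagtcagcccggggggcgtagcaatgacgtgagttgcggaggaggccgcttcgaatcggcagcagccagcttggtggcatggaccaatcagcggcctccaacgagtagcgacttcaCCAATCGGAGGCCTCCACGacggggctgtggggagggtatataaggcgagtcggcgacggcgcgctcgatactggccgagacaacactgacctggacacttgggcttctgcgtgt
Dnajc3: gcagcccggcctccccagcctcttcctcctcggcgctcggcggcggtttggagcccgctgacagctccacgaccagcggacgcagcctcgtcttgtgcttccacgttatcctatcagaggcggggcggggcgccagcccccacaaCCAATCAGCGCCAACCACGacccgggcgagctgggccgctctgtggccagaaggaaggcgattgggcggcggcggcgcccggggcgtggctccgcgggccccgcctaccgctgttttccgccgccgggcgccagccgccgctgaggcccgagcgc
Calr: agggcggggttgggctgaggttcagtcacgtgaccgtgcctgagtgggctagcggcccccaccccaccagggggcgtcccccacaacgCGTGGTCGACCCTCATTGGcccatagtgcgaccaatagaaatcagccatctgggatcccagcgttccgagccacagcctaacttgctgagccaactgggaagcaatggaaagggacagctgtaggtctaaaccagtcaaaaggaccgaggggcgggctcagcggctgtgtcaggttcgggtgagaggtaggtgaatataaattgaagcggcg
Of 32851 promoters searched 39 (0.119%) hold this element, and 8 of the 20 list members with a promoter do, namely Calr, Canx, Creld2, Dnajc3, Hsp90b1, Hspa5, Pdia6 and Syvn1. Of 7 risen members with a promoter 2 hold it. The heat shock element, here GAA, TTC and GAA with 2 bases of any kind between each, also searched on both strands, is in 198 promoters (0.603%) and in 4 of 14 heat shock genes with a promoter, Chordc1, Hsph1, Hspd1 and Hspe1. The last pair share a stretch of promoter between them, and of the 7 risen heat shock genes with a promoter 2 hold the element. A match describes letters in this window and is not a measured binding site.

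Meningeal fibroblast markers rose in 10 of 20 cases and fell in none (median 0.21). These cells form the coverings of the brain and carry transporters at the fluid border. Slc6a20a, a proline transporter, had 7.69 to 11.9 FPKM (median 10.4) at day 14 and 4.14 to 6.10 FPKM (median 5.34) at day 7, with 9.12 to 11.8 FPKM in saline (0.85 ± 0.11, limma adjusted p = 1.52e-06). Slc13a4, a sulphate transporter, had 3.30 to 4.50 FPKM (median 4.36) at day 14, against 1.90 to 3.22 FPKM (median 2.25) at day 7 and 5.37 to 5.96 FPKM in saline (0.58 ± 0.083, limma adjusted p = 1.09e-05). Neither gene's days overlapped, and for Slc13a4 the day 14 values stayed under those of saline. Igf2, a growth factor from meninges and choroid plexus, had 11.9 to 17.9 FPKM (median 14.7) at day 14 and 7.83 to 11.8 FPKM (median 9.94) at day 7, with 20.2 to 23.8 FPKM in saline (0.49 ± 0.091, limma adjusted p = 0.000227). Aldh1a2, which makes retinoic acid, rose by 0.46 and Dcn, the proteoglycan decorin, by 0.45 (limma adjusted p = 0.000278 and 0.000413). All 5 lay above day 7 in every day 14 library, and 9 or 10 members of the list rose when any 1 library was left out. Against saline, with which these comparisons share libraries, 7 of the list were lower at day 14 (0.442% of all genes) and 17 at day 7 (10.5% of all genes).

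Collagens changed in both directions. Of 19 collagen genes 4 rose and 8 fell (median -0.12). Fibrillar chains of the meninges rose, Col1a2 with 6.22 to 8.16 FPKM (median 7.31) at day 14 and 3.57 to 7.04 FPKM (median 5.29) at day 7 (0.42 ± 0.10, limma adjusted p = 0.00313), and Col3a1 with 2.68 to 3.33 FPKM (median 3.19) at day 14 and 1.65 to 3.06 FPKM (median 2.11) at day 7 (0.37 ± 0.094, limma adjusted p = 0.00429). The other rises were Col4a5 (0.18 ± 0.068, limma adjusted p = 0.0465) and Col8a1 (0.19 ± 0.065, limma adjusted p = 0.0295). Col1a1 did not pass (0.11 ± 0.10, limma adjusted p = 0.457). Col4a2, a basement membrane chain, had 10.1 to 11.6 FPKM (median 11.1) at day 14 and 13.1 to 16.2 FPKM (median 14.1) at day 7 without overlap, with 13.3 to 13.9 FPKM in saline (-0.36 ± 0.050, limma adjusted p = 6.69e-06). Its partner Col4a1 (-0.26 ± 0.060, limma adjusted p = 0.00208) and the microfibril chain Col6a1 (-0.61 ± 0.12, limma adjusted p = 0.000304) fell too. Col16a1 (-0.56 ± 0.11, limma adjusted p = 0.000278) and Col11a1 (-0.53 ± 0.087, limma adjusted p = 4.89e-05) also had every day 14 library below every day 7 library. The number of falls was 6 to 9 under the alternatives run. The number of rises was 2 without replicate 1 or 2 of 1/2 LD50 or replicate 3 of 1/5 LD50 at day 7, or without replicate 1 of 1/5 LD50 or replicate 2 of 1/2 LD50 at day 14.

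Choroid plexus genes rose in 5 of 14 cases (median 0.32). This tissue secretes cerebrospinal fluid, and how much of it each library held was not tested. Kl, klotho, had 2.20 to 3.38 FPKM (median 2.67) at day 14 and 0.819 to 2.49 FPKM (median 1.45) at day 7 (0.59 ± 0.15, limma adjusted p = 0.0046). Folr1, a folate receptor, rose by 0.63 and F5, coagulation factor V, by 0.36 (limma adjusted p = 0.0152 and 0.00424), and F5 lost its call with the length trend removed (0.0857). Ttr, transthyretin and the most abundant of them, had 239 to 460.2 FPKM (median 426) at day 14 and 202 to 492 FPKM (median 344) at day 7 and did not pass (0.25 ± 0.23, limma adjusted p = 0.461). The summed FPKM of the list was 367 to 666 at day 14, 306 to 662 at day 7 and 567 to 782 in saline, so that the days overlapped widely. The number of rises was 3 without replicate 1 of 1/2 LD50 at day 7 or replicate 1 of 1/5 LD50 at day 14. It was 2 without replicate 1 of 1/5 LD50 at day 7 or replicate 2 of 1/2 LD50 at day 14, which also ended the call of Folr1 (0.05 and 0.061).

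**Figure D4:**
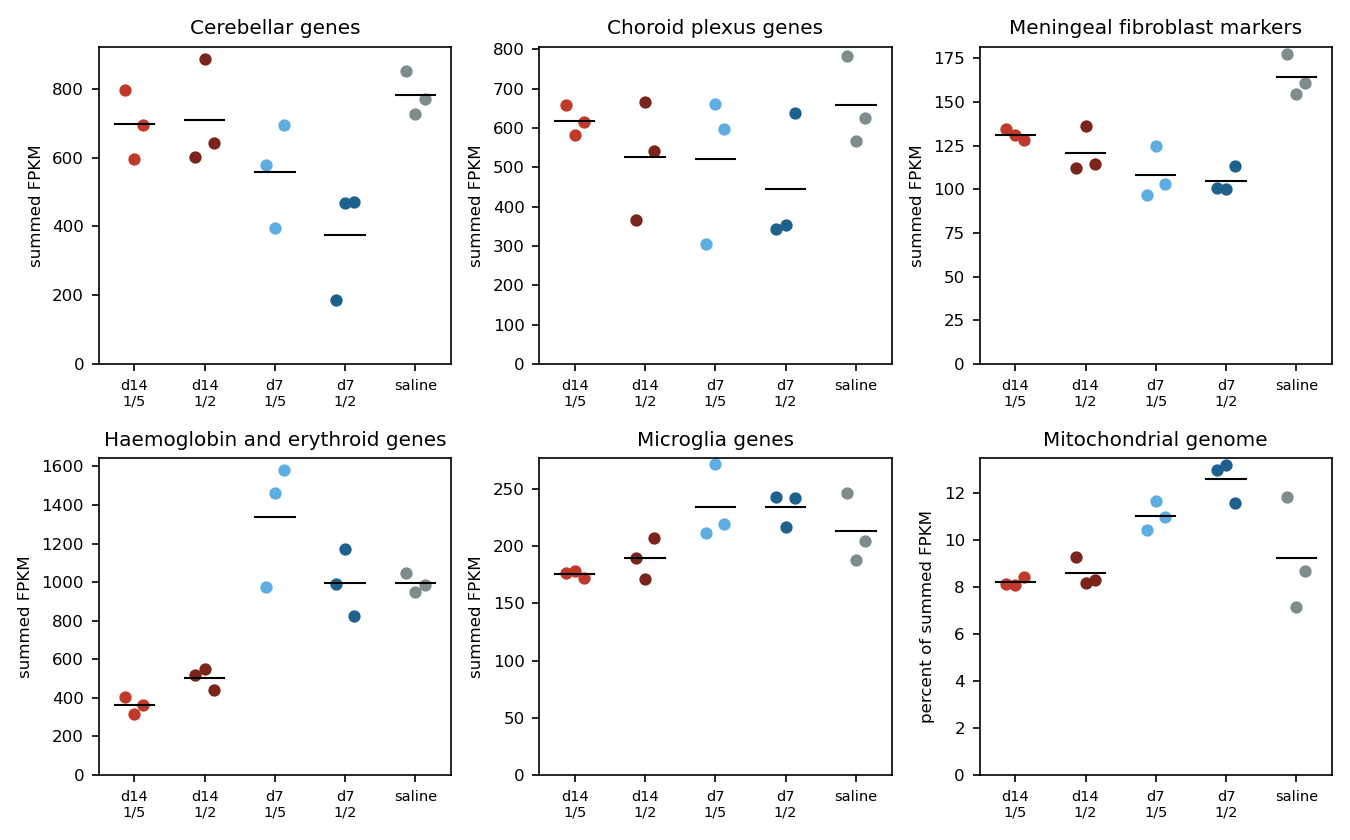
Summed FPKM of the cerebellar, choroid plexus, meningeal, haemoglobin and microglia lists, and the percent of FPKM from the mitochondrial genome, in each library of day 14 (d14, red), day 7 (d7, blue) and saline (grey), with a bar for the mean of 3. Haemoglobin and erythroid genes sum to 314 to 548 at day 14 and 825 to 1580 at day 7, and 1 library of day 7 at 1/2 LD50 is lowest in cerebellar transcripts at 186.

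The plot of list sums by library sets these markers side by side, and days separate without overlap in the haemoglobin, microglia and mitochondrial panels only.

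Haemoglobin and erythroid genes had the lowest median of the lists. Of 8 tested, 6 fell and none rose (median -1.51), and this count was 6 or 7 in every alternative run. All 6 fell at 1/5 LD50 (median -1.94, 4.44% of all genes falling) and 1 did at 1/2 LD50 (median -0.95, 2.97% of all genes falling). No gene passed the test of a difference between the doses. Hbb-bs, a beta globin chain, had 81.7, 47.4 and 64.8 FPKM at day 14 after 1/5 LD50 and 125, 148 and 103 after 1/2 LD50, against 261, 411 and 476 FPKM after 1/5 LD50 and 242, 324 and 226 FPKM after 1/2 LD50 at day 7. Day 14 lay below day 7 and below saline (257 to 301 FPKM) in every library, with 1/5 LD50 the lowest (-1.80 ± 0.27, limma adjusted p = 2.26e-05). Hba-a1, an alpha chain, had 60.4 to 144 FPKM (median 102) at day 14 and 251 to 501 FPKM (median 333) at day 7 (-1.80 ± 0.23, limma adjusted p = 2.3e-06). Hbb-bt (-1.89 ± 0.28, limma adjusted p = 1.7e-05) and Hba-a2 (-1.79 ± 0.39, limma adjusted p = 0.00137) fell likewise. The alpha pair and the beta pair are nearly identical genes, and the division of reads within each pair is uncertain. Alas2, the haem synthesis enzyme of red cells, had 0.489 to 1.71 FPKM (median 1.22) at day 14 and 2.93 to 5.70 FPKM (median 3.84) at day 7 (-1.22 ± 0.21, limma adjusted p = 0.000128). The sixth was Ube2l6, which is also interferon-inducible (-0.45 ± 0.11, limma adjusted p = 0.00355). Bpgm, which brain cells also express, did not pass (-0.18 ± 0.079, limma adjusted p = 0.104). How much blood each library held was not tested.

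Some vessel genes fell as well. Of 19 brain endothelium and barrier genes 5 fell and 1 rose (median -0.15). At 1/5 LD50 6 fell and 1 rose (median -0.27, 4.44% of all genes falling). At 1/2 LD50 2 fell and none rose (median 0.043, 2.97% of all genes falling). No gene passed the test of a difference between the doses. Of the endothelial markers Pecam1 fell (-0.24 ± 0.065, limma adjusted p = 0.00769) and Cldn5 did not pass (-0.19 ± 0.16, limma adjusted p = 0.4). Kdr, the VEGF receptor of endothelium, had 3.69 to 4.60 FPKM (median 4.03) at day 14 and 4.86 to 7.08 FPKM (median 5.62) at day 7, with 6.11 to 6.88 FPKM in saline (-0.42 ± 0.071, limma adjusted p = 8.47e-05). Tek, the angiopoietin receptor, had 2.84 to 3.44 FPKM (median 3.22) at day 14 and 3.98 to 5.06 FPKM (median 4.80) at day 7 (-0.42 ± 0.055, limma adjusted p = 3.76e-06). Both had every day 14 library below every day 7 library. Bsg, basigin, fell (-0.23 ± 0.045, limma adjusted p = 0.000451), and the one rise was Tjp1, the tight junction scaffold (0.20 ± 0.042, limma adjusted p = 0.00114), with a limma adjusted p of 0.258 once the length trend was removed. Vegfa, the ligand of Kdr on the hypoxia list, had 16.1 to 17.9 FPKM (median 17.7) at day 14 and 19.4 to 23.1 FPKM (median 21.3) at day 7 without overlap (-0.27 ± 0.051, limma adjusted p = 0.000263). Of 14 vessel wall and pericyte genes 5 fell, among them the pericyte genes Cspg4 (-0.26 ± 0.057, limma adjusted p = 0.00152) and Rgs5 (-0.39 ± 0.12, limma adjusted p = 0.0179). That count was 3 without replicate 1 of either dose at day 7 and 2 without replicate 2 of 1/2 LD50 at day 14. Rgs5 lost its call without replicate 1 of 1/5 LD50 at day 7 (0.055) or replicate 2 of 1/2 LD50 at day 14 (0.0621).

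Microglia genes fell in 12 of 20 cases and rose in none (median -0.30). Microglia are the resident macrophages of the brain. P2ry12, their purinergic receptor for sensing damage, had 5.80 to 7.38 FPKM (median 6.87) at day 14 and 8.03 to 12.6 FPKM (median 10.3) at day 7, with 6.96 to 10.4 FPKM in saline (-0.55 ± 0.12, limma adjusted p = 0.000835). Tyrobp, the signalling adaptor of Trem2, had 7.90 to 9.44 FPKM (median 8.24) at day 14 and 10.7 to 13.9 FPKM (median 11.6) at day 7 (-0.45 ± 0.10, limma adjusted p = 0.00203). Aif1, the Iba1 protein used to stain these cells, had 2.66 to 3.90 FPKM (median 3.05) at day 14 and 4.21 to 5.82 FPKM (median 4.77) at day 7 (-0.48 ± 0.11, limma adjusted p = 0.00181). None of the 3 overlapped between days. The complement genes C1qa (-0.41 ± 0.14, limma adjusted p = 0.035) and C1qb (-0.41 ± 0.13, limma adjusted p = 0.0175) and the chemokine receptor Cx3cr1 (-0.30 ± 0.10, limma adjusted p = 0.0258) fell too, and Tmem119 did not pass (-0.15 ± 0.11, limma adjusted p = 0.327). The summed FPKM of the list was 171 to 207 at day 14, 212 to 272 at day 7 and 188 to 246 in saline. The count of falls was 5 without replicate 2 of 1/5 LD50 at day 7, 7 without replicate 1 of 1/2 LD50 at day 7 and 5 without both that library and replicate 3 of 1/5 LD50 at day 14.

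Among immune lists beyond microglia, 14.3% of interferon-stimulated and 8.33% of antigen presentation genes fell, against 10.3% of all genes. Of 21 interferon-stimulated genes 3 fell (median -0.22), among them Ifitm3, a membrane restriction factor, with 4.08 to 7.00 FPKM (median 5.90) at day 14, 6.78 to 12.6 FPKM (median 9.29) at day 7 and 9.50 to 18.2 FPKM in saline (-0.62 ± 0.17, limma adjusted p = 0.00883). Of 24 antigen presentation genes 2 fell (median -0.36), B2m, the light chain of class I molecules, with 29.4 to 39.8 FPKM (median 33.5) at day 14 and 38.3 to 90.8 FPKM (median 49.8) at day 7 (-0.68 ± 0.21, limma adjusted p = 0.0168), and Psmb8 (-0.55 ± 0.20, limma adjusted p = 0.0473). The antigen presentation count was 0 without replicate 3 and 4 without replicate 1 of 1/5 LD50 at day 7, 2 without replicate 2 of 1/5 LD50 at either day, and 1 without any other single library. It was 0 with the length trend removed, so that B2m and Psmb8 were both lost, and 6 with a pseudocount of 0.1, in a model of only the 4 groups and in the additive model. The interferon count was 5 without replicate 1 of 1/5 LD50 at day 7. No inflammatory cytokine or chemokine of 6 tested and no astrocyte gene of 16 passed by limma, with 3 of each list at an unadjusted p under 0.05, Gfap having 52.6 to 73.8 FPKM (median 70.2) at day 14 and 48.1 to 95.2 FPKM (median 67.7) at day 7 (-0.0073 ± 0.14, limma adjusted p = 0.977).

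In the oligodendrocyte lineage 6 of 15 progenitor genes fell and 1 rose (median -0.18), and 5 of 18 myelin genes fell (median -0.21). Olig1, a transcription factor of the lineage, had 32.2 to 36.8 FPKM (median 34.8) at day 14 and 45.3 to 57.6 FPKM (median 49.1) at day 7 without overlap, with 39.8 to 48.5 FPKM in saline (-0.53 ± 0.073, limma adjusted p = 6.18e-06). Opalin, a myelin membrane protein, had 5.18 to 7.31 FPKM (median 7.05) at day 14 and 7.89 to 11.1 FPKM (median 9.79) at day 7 (-0.51 ± 0.095, limma adjusted p = 0.000219). Mbp, myelin basic protein, had 1032 to 1255 FPKM (median 1209) at day 14 and 1227 to 2170.1 FPKM (median 1703) at day 7 (-0.45 ± 0.14, limma adjusted p = 0.0166), and the days overlapped. The limma adjusted p of Mbp was 0.0702 without replicate 3 of 1/2 LD50 at day 7, its highest library, and under quantile normalization the difference was 0.040 (0.887). Without that library 1 myelin gene fell. The number was 2 without replicate 2 or 3 of 1/5 LD50 at day 7, replicate 2 of 1/5 LD50 at day 14 or replicate 1 of 1/2 LD50 at day 14, and 3 without replicate 3 of 1/5 LD50 at day 14. The progenitor falls numbered 3 without replicate 2 of 1/5 LD50 at day 7 and 3 without the 8 libraries standing apart, and the progenitor rise was lost without replicate 3 of 1/5 LD50 at day 7. Myelin falls numbered 2 with the length trend removed and 2 without the 8 libraries.

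Long non-coding RNAs, most of them held in the nucleus, fell in 8 of 9 cases (median -0.37). Neat1, the scaffold of paraspeckles, had 7.16, 11.1 and 7.78 FPKM at day 14 after 1/5 LD50 and 9.62, 8.16 and 15.4 after 1/2 LD50, against 22.8, 22.5 and 25.96 FPKM after 1/5 LD50 and 15.7, 17.2 and 23.97 FPKM after 1/2 LD50 at day 7. Every day 14 library lay below every day 7 library and saline lay within the day 14 range at 10.9 to 15.3 FPKM (-1.06 ± 0.21, limma adjusted p = 0.00043). Snhg11 had 110.0 to 135 FPKM (median 119.5) at day 14 and 144 to 203 FPKM (median 175) at day 7 (-0.53 ± 0.084, limma adjusted p = 3.55e-05). The imprinted transcripts Meg3 (-0.37 ± 0.083, limma adjusted p = 0.00156) and Mirg (-0.40 ± 0.072, limma adjusted p = 0.000185) and Malat1, a nuclear speckle RNA (-0.41 ± 0.11, limma adjusted p = 0.00928), fell as well. Transcripts of this list are long (median 6983 bases), and with the length trend removed 9 of the 9 fell.

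Splicing factor and splicing kinase genes fell in 6 of 19 cases and rose in none (median -0.10). Srsf5, a serine and arginine rich splicing factor, had 83.7 to 96.6 FPKM (median 89.7) at day 14 and 111 to 129 FPKM (median 121) at day 7, with 95.6 to 103 FPKM in saline (-0.40 ± 0.047, limma adjusted p = 7.13e-07). Rsrp1 (-0.33 ± 0.058, limma adjusted p = 0.000124) and Tra2a (-0.30 ± 0.072, limma adjusted p = 0.00296) fell too. Srsf5 and Rsrp1 had no overlap between days. The count was 5 or 6 under every alternative run.

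Ribosomal protein genes fell in 36 of 78 cases and rose in none (median -0.26). Rpl24 had 171 to 189 FPKM (median 177) at day 14 and 185 to 239 FPKM (median 212) at day 7, with 154 to 163 FPKM in saline (-0.24 ± 0.046, limma adjusted p = 0.000309). At 1/5 LD50 19 of the 78 fell (4.44% of all genes falling) and at 1/2 LD50 6 did (2.97% of all genes falling). At 1/10 LD50 18 rose and none fell (median 0.28, 11.2% of all genes rising). Day 7 replicates 2 and 3 of that dose were those of high mitochondrial share. They had 2.52% and 2.00% of their FPKM in the 78 genes, against 3.60% in replicate 1. The 78 genes together took 3.28 to 3.56% of the FPKM at day 14, 3.53 to 4.21% at day 7 and 2.99 to 3.08% in saline. These genes have many near-identical pseudogenes, and how reads were divided among them is uncertain. The count of falls was 18 with the length trend removed, 18 without replicate 1 of 1/2 LD50 at day 7, 23 without replicate 2 of 1/2 LD50 at day 14, 56 without the 8 libraries standing apart and 60 in a model of only the 4 groups. Their transcripts are short (median 1054 bases), and Rpl24 lost its call with the length trend removed (0.0508).

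Genes of the respiratory chain fell in part. Of 13 messenger RNAs of the mitochondrial genome 11 fell (median -0.67). COX2, a cytochrome oxidase subunit, had 1746 to 2161 FPKM (median 1882) at day 14 and 2798 to 3866 FPKM (median 3318) at day 7, with 1767 to 3032 FPKM in saline (-0.76 ± 0.17, limma adjusted p = 0.00132). ND3, a subunit of complex I, had 241.4 to 343 FPKM (median 278) at day 14 and 420.1 to 559 FPKM (median 468) at day 7 (-0.76 ± 0.15, limma adjusted p = 0.000521). Leaving out both day 14, 1/5 LD50 replicate 3, and day 7, 1/2 LD50 replicate 1, 7 fell. These genes have no length in the table used, so the length setting gives them no value. All 11 lay below day 7 in every day 14 library, and for both named genes saline replicate 1 lay within the day 7 range. Under quantile normalization 3 of the 13 fell and the median was -0.029, with COX2 at a limma adjusted p of 0.567 and COX3 at a difference of 0.052 (0.623). Of 66 nuclear-encoded respiratory chain genes 21 fell and none rose (median -0.18), and the list's transcripts have a median of 1025 bases. Uqcrb, of complex III, had 70.5 to 94.6 FPKM (median 86.7) at day 14 and 92.1 to 117 FPKM (median 102) at day 7 (-0.28 ± 0.065, limma adjusted p = 0.00227), and its limma adjusted p was 0.213 with the length trend removed. In that setting 5 of the list fell. At 1/5 LD50 11 of the 66 fell (4.44% of all genes falling), while at 1/2 LD50 none did by limma (2.97% of all genes falling), 5 of them having an unadjusted p under 0.05 there, 3 of these lower. At 1/10 LD50 25 of the 66 rose and none fell (median 0.24, 11.2% of all genes rising), with 2 of the 3 day 7 libraries there being those of high mitochondrial share. The count over both doses was 12 without replicate 1 of 1/2 LD50 at day 7, 11 without replicate 3 of 1/5 LD50 at day 7, 12 without replicate 1 of 1/2 LD50 at day 14 and 42 in a model of only the 4 groups.

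**Figure D5:**
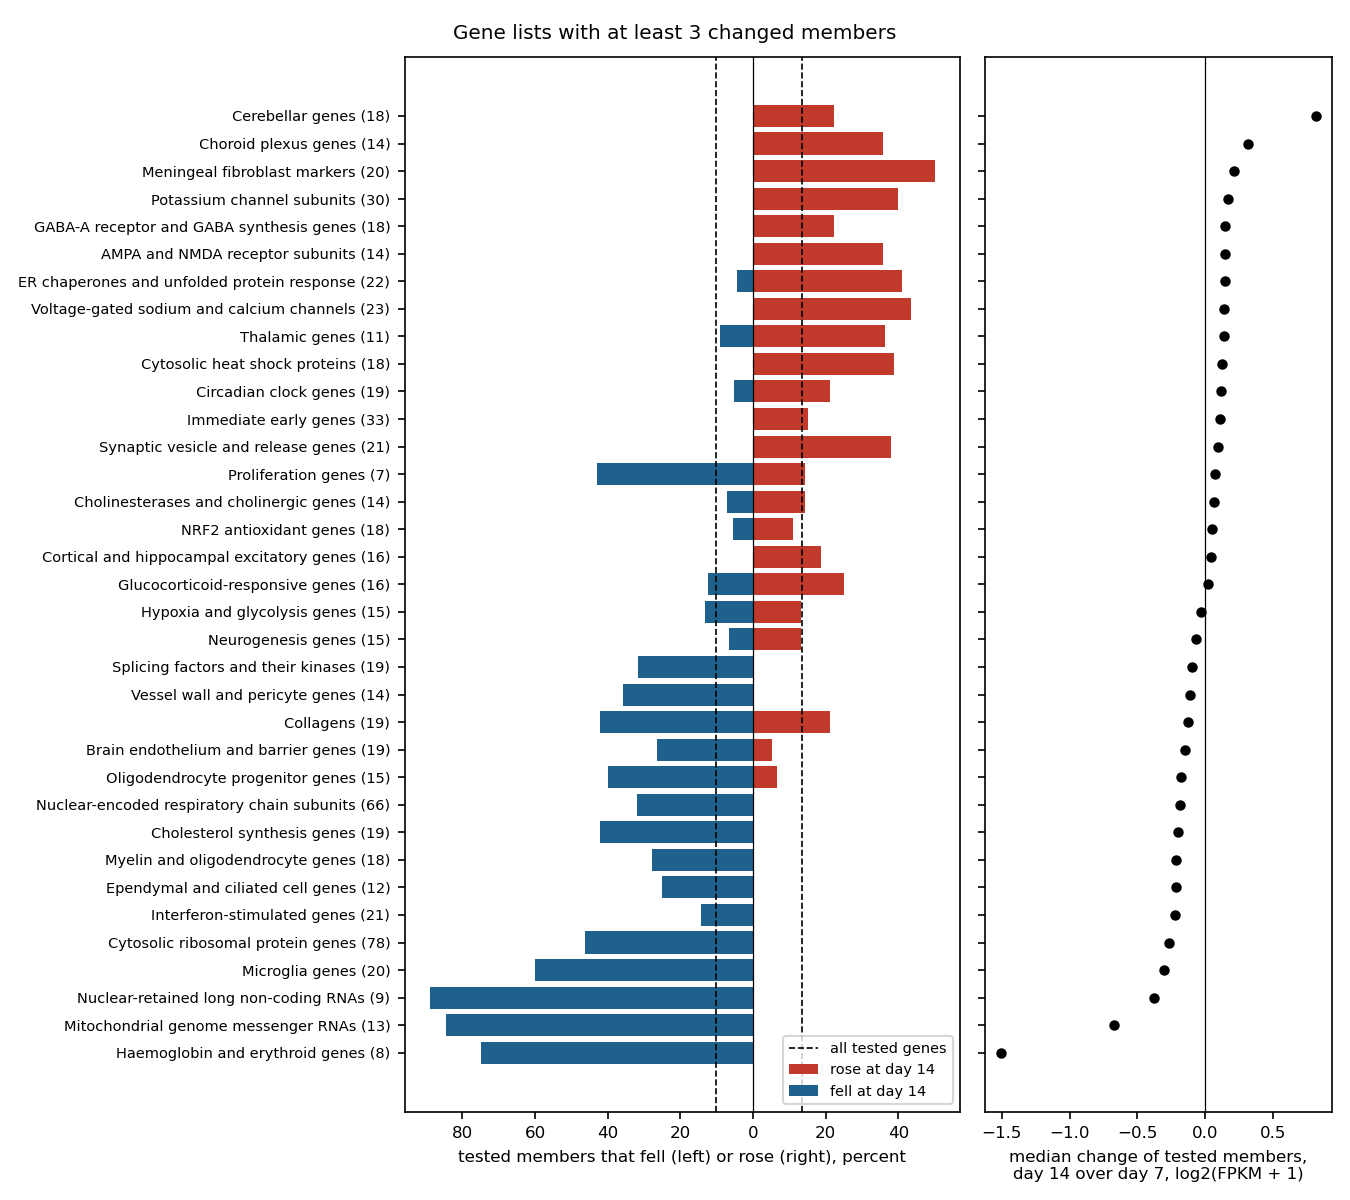
Left, percent of the tested members of each gene list that fell (blue) or rose (red) at day 14 against day 7, with the number tested in brackets and dashed lines at the share of all tested genes (13.6% risen, 10.3% fallen). Right, the median log2(FPKM + 1) difference of the list's tested members. Lists with at least 3 changed members are shown, from the cerebellar list at a median of 0.82 to the haemoglobin list at -1.51.

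The plot of lists sets the neuronal, cerebellar, meningeal and chaperone lists on the side of higher values at day 14. The blood, mitochondrial, nuclear RNA, microglia and ribosomal lists lie on the other. Calls in both directions are held by the collagen, clock, glucocorticoid, ER chaperone, endothelium, oligodendrocyte progenitor, thalamic, hypoxia, proliferation, cholinergic, NRF2 and neurogenesis lists.

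Immediate early genes, the fast response to neuronal drive, rose in 5 of 33 cases and fell in none (median 0.11), a share of risen genes near that of all genes. Dusp4, a MAP kinase phosphatase, had 4.60 to 5.57 FPKM (median 5.08) at day 14 and 2.39 to 4.12 FPKM (median 3.48) at day 7, with 3.74 to 4.25 FPKM in saline (0.49 ± 0.077, limma adjusted p = 3.34e-05). The classical members did not pass, Fos having 13 to 17.04 FPKM (median 13.6) at day 14 and 11.3 to 14.1 FPKM (median 11.9) at day 7 (0.21 ± 0.17, limma adjusted p = 0.384) and Arc 55.6 to 70.7 FPKM (median 62.2) at day 14 and 43.4 to 62.9 FPKM (median 51.6) at day 7 (0.23 ± 0.16, limma adjusted p = 0.295). Homer1, a synaptic scaffold with an inducible short form, rose by 0.38 (limma adjusted p = 0.0142), and it lost its call without replicate 2 of 1/5 LD50 at day 7 (0.0562), without replicate 1 of 1/2 LD50 at day 14 (0.0535) and with the length trend removed (0.0778). The count was 2 or 3 without any 1 of 9 of the 12 libraries, the exceptions being, for day 7, the second library of 1/2 LD50 and, for day 14, replicate 2 after 1/5 LD50 or replicate 3 after 1/2 LD50. At 1/10 LD50, 24 of the 33 rose at day 14 against day 7 (median 0.56, 11.2% of all genes rising), a comparison that holds 3 of the 8 libraries standing apart.

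Cholinergic genes held calls at shares near those of all genes. Ache, acetylcholinesterase and the target of soman, had 26.4 to 33.8 FPKM (median 31.5) at day 14 and 27.99 to 39.9 FPKM (median 32.8) at day 7, with 30.2 to 34.9 FPKM in saline (-0.13 ± 0.095, limma adjusted p = 0.331). Bche, butyrylcholinesterase, had 0.821 to 1.28 FPKM (median 1.05) at day 14 and 0.907 to 1.501 FPKM (median 1.33) at day 7 (-0.14 ± 0.088, limma adjusted p = 0.257). Chat, which makes acetylcholine, had 1.66 to 2.36 FPKM (median 2.11) at day 14 and 1.30 to 2.53 FPKM (median 1.66) at day 7 (0.16 ± 0.12, limma adjusted p = 0.343). All 3 overlapped between days and none passed the test, which says nothing about enzyme activity. Of the 14 genes of the list 2 rose (14.3%, against 13.6% of all genes) and 1 fell (7.14%, against 10.3%). Chrna7, a nicotinic receptor subunit, had 4.75 to 6.66 FPKM (median 5.83) at day 14 and 3.74 to 5.37 FPKM (median 4.22) at day 7 (0.32 ± 0.073, limma adjusted p = 0.00201), the lower values at day 7 being those of 1/5 LD50 (3.96, 3.74 and 3.87 FPKM). Chrnb2, the beta subunit of the main brain receptor, rose (0.26 ± 0.062, limma adjusted p = 0.00296), with 0.0507 once the length trend was removed. Prima1, which anchors acetylcholinesterase to membranes, fell (-0.25 ± 0.073, limma adjusted p = 0.0127), with 0.3 in the same setting.

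Cholesterol synthesis genes fell in 8 of 19 cases (median -0.20). At 1/2 LD50 9 fell (median -0.30, 2.97% of all genes falling) and at 1/5 LD50 none did (median -0.060, 4.44% of all genes falling), and no gene passed the test of that difference. Msmo1, a sterol oxidase, had 34, 33.8 and 35.4 FPKM at day 14 and 44.3, 49.6 and 52.7 at day 7 after 1/2 LD50 (-0.49 ± 0.11, limma adjusted p = 0.00705). After 1/5 LD50 it had 37.8, 37.3 and 37.4 FPKM at day 14 and 40.2, 46.4 and 41.2 at day 7 (-0.18 ± 0.11, limma adjusted p = 0.319). Over both doses every day 14 library of Msmo1 lay below every day 7 library (-0.33 ± 0.079, limma adjusted p = 0.00268). The enzymes Fdps (-0.34 ± 0.075, limma adjusted p = 0.00152) and Mvd (-0.29 ± 0.080, limma adjusted p = 0.00998) fell too. The count over both doses was 4 without replicate 2 of 1/5 LD50 or replicate 3 of 1/2 LD50 at day 7, and 5 without replicate 3 of 1/5 LD50 at day 7, replicate 3 of 1/5 LD50 at day 14 or replicate 1 of 1/2 LD50 at day 14.

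Clock and hormone genes changed in both directions. Of 19 circadian genes 4 rose and 1 fell (median 0.12). Cry1, a repressor of the oscillator, had 9.48 to 13.5 FPKM (median 10.9) at day 14 and 5.22 to 9.67 FPKM (median 7.27) at day 7 (0.56 ± 0.13, limma adjusted p = 0.00166), and Per2, another, had 6.69 to 11.1 FPKM (median 8.99) at day 14 and 4.27 to 10.95 FPKM (median 6.21) at day 7 (0.42 ± 0.088, limma adjusted p = 0.000924). Dbp, an output gene with a strong daily rhythm, fell, with 17.3 to 42.3 FPKM (median 30.8) at day 14 and 29.1 to 57.1 FPKM (median 36.6) at day 7 (-0.40 ± 0.092, limma adjusted p = 0.00211). Its libraries of 1/2 LD50 lay below those of 1/5 LD50 at both days (24, 21.2 and 17.3 against 42.3, 37.6 and 38.6 FPKM at day 14). The hour of collection is not given in the labels used here, and its part was not tested. Of 16 glucocorticoid-responsive genes 4 rose and 2 fell (median 0.024), Fkbp5, a co-chaperone of the receptor, having 6.27 to 8.66 FPKM (median 7.26) at day 14 and 4.86 to 7.07 FPKM (median 5.69) at day 7 (0.31 ± 0.081, limma adjusted p = 0.00615). Zbtb16, a zinc finger repressor, rose (0.37 ± 0.076, limma adjusted p = 0.000686), as did Sult1a1, a sulphotransferase (0.46 ± 0.11, limma adjusted p = 0.00424). Falls on that list numbered 0 without, at day 7, replicate 3 after 1/5 LD50 or replicate 1 after 1/2 LD50, and without replicate 3 after 1/5 LD50 at day 14. They numbered 1 without, at day 7, replicate 2 after 1/5 LD50 or replicate 3 after 1/2 LD50, and without, at day 14, replicate 1 after 1/5 LD50 or replicate 2 after 1/2 LD50.

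The remaining lists are set beside the 13.6% of all genes that rose and the 10.3% that fell. Ependymal and ciliated cell genes fell in 3 of 12 cases (median -0.22), such as Tmem212 (-0.61 ± 0.15, limma adjusted p = 0.00335), and in 5 without replicate 1 of 1/5 LD50 at day 7. Antioxidant genes under NRF2 rose in 2 of 18 and fell in 1, Txnrd1, thioredoxin reductase, having 19.3 to 21.9 FPKM (median 20.7) at day 14 and 14.4 to 18.5 FPKM (median 16.4) at day 7 (0.31 ± 0.048, limma adjusted p = 3.31e-05). Hypoxia and glycolysis genes rose in 2 of 15 and fell in 2, with Pfkfb3, a regulator of glycolysis, at 9.20, 9.12 and 9.35 FPKM at day 14 and 5.08, 5.34 and 7.01 at day 7 after 1/2 LD50 (0.60 ± 0.10, limma adjusted p = 0.000772). Proliferation genes fell in 3 of 7 and rose in 1, the falls including Hmgb2 (-0.33 ± 0.068, limma adjusted p = 0.000895). In the neurogenesis list 2 of 15 rose and 1 fell, the fall being Dcx, doublecortin of young neurons, with 1.66 to 2.91 FPKM (median 1.92) at day 14 and 1.92 to 3.68 FPKM (median 3.43) at day 7 (-0.46 ± 0.11, limma adjusted p = 0.00299). Thalamic genes rose in 4 of 11 and fell in 1, cortical and hippocampal excitatory genes rose in 3 of 16, and p53 targets rose in 2 of 15. The risen shares of the p53, neurogenesis and hypoxia lists (13.3% each) and of the NRF2 list (11.1%) were under that of all genes. Those of the thalamic (36.4%) and cortical (18.8%) lists were above it. Fallen shares above that of all genes included those of the proliferation (42.9%), ependymal (25%) and hypoxia (13.3%) lists. Thalamic rises numbered 2 without replicate 2 of 1/5 LD50 or replicate 3 of 1/2 LD50 at day 7, or without replicate 3 of either dose at day 14. Cortical rises numbered 1 without replicate 1 or 3 of either dose at day 7, or at day 14 without replicate 1 after 1/5 LD50 or replicate 2 after 1/2 LD50. The rises of the neurogenesis list came to 1 without any library other than replicate 2 after 1/2 LD50 at day 7 and replicate 1 after 1/2 LD50 at day 14. Those of the hypoxia list came to 1 without replicate 1 after 1/5 LD50 at either day, and without replicate 2 after 1/2 LD50 at day 14, as did those of p53 targets without the last of these. No neuropeptide gene of 21, striatal gene of 18, dopaminergic or serotonergic gene of 9 or cold-inducible RNA-binding protein gene of 3 passed limma's test over both doses, with 5, 2, 1 and 0 of these lists at an unadjusted p under 0.05. Histone genes fell in 1 of 11 cases, and 1 of 3 tested markers of other organs, Acta1, fell (-0.24 ± 0.084, limma adjusted p = 0.0351). Acta1 lost its call with the length trend removed, without the 8 libraries standing apart, at day 7 without replicate 3 after 1/5 LD50 or replicate 1 or 2 after 1/2 LD50, and at day 14 without replicate 2 or 3 after 1/5 LD50 or replicate 2 after 1/2 LD50. The histone fall was lost with the length trend removed, without replicate 1 after 1/5 LD50 at day 7, and at day 14 without replicate 3 after 1/5 LD50 or replicate 1 or 2 after 1/2 LD50. There were 2 histone falls without replicate 2 after 1/5 LD50 at day 14. The NRF2 fall was lost with the length trend removed, at day 7 without replicate 2 or 3 after 1/5 LD50 or replicate 1 or 3 after 1/2 LD50, and at day 14 without replicate 2 of either dose. The proliferation rise was lost without replicate 2 of either dose at day 7 and without replicate 3 after 1/2 LD50 at day 14. Neurogenesis falls numbered 4 without replicate 3 after 1/5 LD50 at day 7 and 2 without replicate 3 after 1/2 LD50 at day 14.

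Most of the other named falls lay outside these lists. Lsm5, a subunit of the RNA-binding Lsm ring, had 0.392 to 1.61 FPKM (median 1.13) at day 14 and 2.57 to 7.21 FPKM (median 4.44) at day 7, with 0.657 to 3.15 FPKM in saline (-1.45 ± 0.38, limma adjusted p = 0.00636). S100a5, a calcium-binding protein of olfactory neurons, was listed at 0 in 5 of 6 libraries of day 14 and at 0.111 FPKM in the other, against 3.71, 3.23 and 0.254 FPKM at day 7 after 1/5 LD50 and 0.13, 2.51 and 1.80 after 1/2 LD50 (-1.33 ± 0.29, limma adjusted p = 0.00146). Doc2g, a gene of the double C2 domain family, had 2.61 to 8.51 FPKM (median 3.14) at day 14 and 3.26 to 15.3 FPKM (median 7.92) at day 7 (-0.93 ± 0.31, limma adjusted p = 0.0299). Gh, growth hormone of the pituitary, had 0 to 19.8 FPKM (median 1.03) at day 14 and 2.70 to 55.8 FPKM (median 13.6) at day 7 (-2.11 ± 0.68, limma adjusted p = 0.0239), and Prl, prolactin, fell too (-0.72 ± 0.25, limma adjusted p = 0.0367). Both are on a list of 12 hypothalamic and pituitary genes with no other call. Dpm1, a mannose donor synthase (-0.98 ± 0.22, limma adjusted p = 0.00178), and the microRNA gene Mir6955 (-0.93 ± 0.16, limma adjusted p = 0.000123) fell as well. Sumo2, a protein modifier (-0.94 ± 0.33, limma adjusted p = 0.0378), and Mid1, a ubiquitin ligase (-1.12 ± 0.36, limma adjusted p = 0.0239), were called over both doses.

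These last calls rested on single libraries. The limma adjusted p of Gh was 0.0665, 0.0794, 0.108, 0.0515 and 0.0579 without replicate 2 of 1/5 LD50 at day 7, without replicate 3 of 1/2 LD50 at day 7, and at day 14 without the first library after 1/5 LD50 and the first and second after 1/2 LD50. Prl was not called in any of these 5 settings either, and 1 of the pair was called without replicate 2 of 1/2 LD50 at day 7. Doc2g was lost without replicate 1 or 2 of 1/5 LD50 or replicate 3 of 1/2 LD50 at day 7, and without replicate 1 of either dose or replicate 2 of 1/2 LD50 at day 14. Mid1 was lost without replicate 1 or 3 of 1/5 LD50 or replicate 2 of 1/2 LD50 at day 7, or replicate 3 of 1/2 LD50 at day 14. Sumo2 was lost without any 1 of 8 libraries, the exceptions being, for day 7, replicate 3 after 1/5 LD50 and, for day 14, replicates 2 and 3 after 1/5 LD50 or replicate 3 after 1/2 LD50. With the length trend removed its limma adjusted p was 0.0857.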

How the data were processed

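RNA of mouse brain was taken up in Trizol, primed with poly(dT) and copied with SmartScribe, per the labels' protocols. FPKM values per gene were deposited by the authors in 1 table of 39 libraries. Alignment with HISAT2 is named per the submitters' processing notes, which name GRCh38, a human build, for these mouse samples, so that no coordinate was taken from it. The program that computed FPKM is not given in the sources used here. Of 47561 deposited genes, 9779 were at 0 in every library and 1987 carried identifiers made by an assembly.

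Genes with an FPKM of at least 1 in at least 3 libraries were tested (14701). They were fitted as log2(FPKM + 1) of the deposited values with limma 3.58.1 in R 4.3.3, 1 model of 13 groups and 39 libraries that share 1 estimate of spread, a trend of variance on level and Benjamini-Hochberg adjustment over all tested genes at 0.05. The change at day 14 against day 7 was averaged over 1/5 and 1/2 LD50 with equal weight. The doses share no library with each other, while comparisons with saline share libraries with it. Low FPKM values did not fall on steps that whole reads would give (0.928% at the commonest ratio), so depth is unknown and no interval from counts is given.

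The comparison, the genes and the 47 gene lists were chosen with earlier results of these data known. Lists are described by counts and medians, with no test of a list. The text names the 14 largest rises and 14 largest falls among called genes of a mean of at least 2 FPKM and the same direction at both doses. It adds up to 5 members of smallest p from each list with at least 3 called members, and Ache, Bche and Chat. The rule would also add up to 6 genes that pass the test between the doses, and none passed. Other list members named for contrast, such as Ttr, Gfap and Calr, were chosen after their values were seen. Some genes that this rule picks are not reported here. Transcript lengths came from GENCODE vM21 for 14318 tested genes (97.39%), and a lowess trend of span 0.5 was removed from each library in 1 alternative. A library was said to stand apart where more of its genes than in any other group lay at 0.3 to 0.7 of the way between the other 2 libraries of its group, or where its mitochondrial share was high. The alternatives were another pseudocount (0.1), no filter, median-ratio scaling, quantile normalization, mitochondrial genes removed, a model of only the groups compared, an additive model of day and dose, a replicate block, the 8 libraries standing apart left out, and each library left out in turn. Scripts were tested on simulated data. Tables and plots were made in Python 3.11.15 (pandas 2.3.3, numpy 2.4.6; matplotlib 3.10.9 for the plots). Promoters came from RefSeq.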

Additional observations from a re-analysis of the deposited data

Results flagged for a closer look

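Beside the comparison of the higher doses stood that of 1/10 LD50, and a test of the difference between the 2 changes at day 14 against day 7 gave 982 genes. Without the 8 libraries standing apart, 4 of which are at 1/10 LD50 and 3 of these at day 14 or day 7, this count was 0, with 1 library of day 7 left at 1/10 LD50. It was 92 without replicate 3 and 3402 without replicate 1 of 1/10 LD50 at day 7. Replicates 2 and 3 of 1/10 LD50 at day 7 held 23.1% and 27.6% of their FPKM in the mitochondrial genome. The part of these libraries in the single values below was not tested.

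Of the 166 genes of the naming rule considered here 21 passed this test, 8 with a more positive change at the higher doses. Over all tested genes 6.68% passed. Nearly all of the 166 were picked on their change at the higher doses, which is part of the tested difference. That favours a pass, so the count is not a result about these genes as a set. The log2 difference of the 2 changes was 2.63 for Gdf1, 0.73 for Mcm5, 0.72 for Slc13a4, 0.71 for Dcn, 0.56 for Igf2, 0.51 for Synpo2, 0.36 for Ntng1 and 0.30 for Tjp1. Among globin genes it was -2.04 for Hbb-bt, -1.94 for Hbb-bs and -1.33 for Hba-a1. In genes of RNA handling it was -2.25 for Lsm5, -1.19 for Neat1, -0.57 for Gas5, -0.50 for Tra2a and -0.41 for Rsrp1. The respiratory gene Ndufa3 gave -0.76. The rest were Nr4a3 at -0.61, Msmo1 at -0.44, Dnajb4 at -0.26 and P4ha1 at -0.26.

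At 1/10 LD50 the globin gene Hbb-bs differed by 0.14 ± 0.39, limma adjusted p = 0.839 at day 14 against day 7, while at the higher doses it was -1.80 ± 0.27, limma adjusted p = 2.26e-05. Neat1 differed by 0.13 ± 0.29, limma adjusted p = 0.809 at 1/10 LD50 and by -1.06 ± 0.21, limma adjusted p = 0.00043 at the higher doses. Slc13a4 differed by -0.14 ± 0.12, limma adjusted p = 0.426 at 1/10 LD50 and by 0.58 ± 0.083, limma adjusted p = 1.09e-05 at the higher doses.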

How the results depend on the processing

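Depth is unknown and 3 libraries made up a group, so small changes of low genes could not be resolved. Of 173 named genes past the threshold, 103 kept their call under every alternative run, 30 lost it under 1 or 2, 11 under 3 to 5 and 29 under 6 or more. The count of 3508 over both doses was 3484 with a pseudocount of 0.1, 2913 without a filter, 3796 and 3590 with median-ratio and quantile scaling, 3820 without mitochondrial genes, 4307 in a model of only the 4 groups, 3977 in an additive model of 12 libraries, 2415 with the length trend removed and 3139 without the 8 libraries standing apart. Without mitochondrial genes 68.2% of calls were higher at day 14, against 57.0% with them, and at 1/10 LD50 the 68.2% of calls that were higher came to 49.9%, 51.2% and 51.7% with median-ratio scaling, quantile scaling and mitochondrial genes removed.

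The cause of the following shifts was not tested. Without the 8 libraries standing apart, counts were 1182 at 1/5 LD50, 10 at 1/10 LD50, 0 for the difference from 1/10 LD50, 1 for day 14 against saline and 1354 for day 7 against saline, with 1 library of day 7 left at 1/10 LD50. With the length trend removed they were 1081 at 1/5 LD50 and 1217 for day 7 against saline. In a model of only the groups compared they were 120 at 1/2 LD50, 4 for the difference between doses, 0 at 1/10 LD50, 28 for the difference from 1/10 LD50 and 139 for day 14 against saline. Without a filter, 453 genes differed from 1/10 LD50 and 1 between doses, as did 1 with a pseudocount of 0.1. Without both the day 14 and the day 7 library that stand out among the 12, a setting chosen after seeing the data, counts were 1926 over both doses (65.4% higher), 1094 at 1/5 LD50, 183 at 1/2 LD50, 289 for the difference from 1/10 LD50, 50 for day 14 against saline and 1562 for day 7 against saline. Leaving out 1 library at a time gave 2450 to 3333 over both doses, 1012 to 1364 at 1/5 LD50, 211 to 1105 at 1/2 LD50, 0 to 2 between doses, 614 to 4551 at 1/10 LD50, 92 to 3402 for the difference from 1/10 LD50, 15 to 87 for day 14 against saline and 1225 to 2649 for day 7 against saline. COX3 (0.052) and Mbp (0.040) changed sign with quantile scaling and Cacna1c (-0.00057) with the length trend removed.

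Counts of lists moved by over 1.5 times in the following cases, beside those named with the results. With the length trend removed, 2 glutamate receptor, 2 collagen, 1 cortical, 3 immediate early, 1 neurogenesis, 2 vesicle, 2 thalamic and 1 p53 genes rose and no antigen presentation, 18 ribosomal, no glucocorticoid, 1 pituitary, 1 hypoxia, 2 myelin, 5 respiratory and 3 pericyte genes fell. Without a filter, 1 cortical, 2 immediate early, 1 neurogenesis and 5 vesicle genes rose and 1 antigen presentation, 5 cholesterol, 22 ribosomal, 1 glucocorticoid, no pituitary, 7 microglia, 7 mitochondrial, 1 myelin and 3 progenitor genes fell. In a model of only the 4 groups, 10 cerebellar, 2 collagen, 7 GABA and 9 immediate early genes rose and 6 antigen presentation, 60 ribosomal, 5 ependymal, 1 glucocorticoid, 6 interferon and 42 respiratory genes fell. Without the 8 libraries standing apart, 3 glutamate receptor, 3 choroid plexus, 1 cortical, 2 immediate early, 1 neurogenesis and 2 thalamic genes rose and 1 antigen presentation, 56 ribosomal, 1 glucocorticoid, 1 pituitary, 2 myelin, 33 respiratory and 3 progenitor genes fell. Without both libraries that stand out among the 12, 3 glutamate receptor, 1 choroid plexus, 2 collagen, 1 cortical, 1 hypoxia, 2 immediate early, no neurogenesis, 5 vesicle, 1 thalamic and 1 p53 genes rose and 1 antigen presentation, 5 cholesterol, 16 ribosomal, no glucocorticoid, 1 interferon, 5 microglia, 7 mitochondrial, 2 myelin, 7 respiratory and 2 pericyte genes fell. In the additive model 9 cerebellar and 2 collagen genes rose and 6 interferon, 56 ribosomal and 39 respiratory genes fell. With quantile normalization 11 heat shock genes rose and 22 ribosomal and 3 mitochondrial genes fell, and with mitochondrial genes removed 12 heat shock genes rose and 5 cholesterol genes fell.

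With a replicate block the count over both doses was 3443, with 1777 at 1/5 LD50, 1109 at 1/2 LD50, 0 between doses, 2317 at 1/10 LD50, 962 for the difference from 1/10 LD50, 76 for day 14 against saline and 2443 for day 7 against saline. Libraries with the same number deviated together with correlations of -0.011 to 0.19 across genes in 6 pairs of day 14 and day 7 libraries. Of the 6, 2 correlated best with their own number. No pairing by number was seen, and with 3 libraries a group this check cannot exclude one.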
